A study of Mus musculus with 39 samples.

Results

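Flt1 (VEGF receptor 1) and 8 other genes of the vascular endothelial growth factor (VEGF) system were followed across genotype and chronic intermittent hypoxia in mouse brain microglia. The 9 genes are the receptors Flt1, Kdr and Flt4, the co-receptors Nrp1 and Nrp2, and the ligands Vegfa, Vegfb, Vegfc and Pgf. They were taken by symbol, and all 9 were present among the 46333 genes of the female count table and the 54532 genes of the male count table. Flt1 was singled out because its level was higher in 5XFAD libraries while other vessel genes were not, so the genotype values below describe that choice and carry no test.

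CD11b+ cells were pulled from the cerebrum with magnetic beads and their RNA was sequenced, giving 39 libraries in 2 tables. 5XFAD mice carry human transgenes with familial Alzheimer's disease mutations, expressed in neurons from a Thy1 promoter, and form amyloid plaques. WT mice lack the transgenes. Mice entered treatment at 4 months of age and breathed either room air (normoxia, NX, 21% O2) or chronic intermittent hypoxia (CIH), in which oxygen alternated between 21% and 6.5% every 90 s for 8 h a day per the labels. The study's methods text gives a slightly lower oxygen level and a longer daily exposure. Females were collected at 10 months and males at 8 months. In each sex both genotypes were split by treatment, with 5 libraries a group, except 4 in female WT NX. Age, exposure time and sex cannot be told apart between the 2 tables, so every comparison was made within a table.

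VEGF ligands are secreted proteins that bind tyrosine kinase receptors on endothelial cells and direct vessel growth and permeability. KDR carries most of the growth signal, whereas FLT1 binds VEGFA tightly, signals weakly and also exists as a secreted form that traps ligand. FLT1 is also made by monocytes and macrophages, where it binds VEGFB and PGF, and neuropilins serve both VEGF and semaphorin signalling. Vegfa is a textbook target of hypoxia-inducible factors.

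Flt1 (ENSMUSG00000029648) lies on the minus strand of chr5:147561604-147726011 in GRCm38 and overlaps no other gene of GENCODE M21. Its 2 protein-coding transcripts span chr5:147561604-147726011 and chr5:147635159-147725988, so they share the 5′ part of the gene and differ at the 3′ end. The tables count reads per gene, and the 2 forms were not separated. Nrp2 overlaps the antisense gene Gm29083, and whether reads were counted by strand is not given in the sources used here. Kdr (ENSMUSG00000062960) lies on the same chromosome and strand at chr5:75932827-75978458. The 250 bases before the RefSeq start of these 2 receptor genes (GRCm38.p6, minus strand, 5′ to 3′) are shown because the receptors differed in their values between genotypes. The windows are chr5:147726012-147726261 for Flt1 and chr5:75978456-75978705 for Kdr. Capitals mark, on either strand, the ETS core GGAAG, the cAMP response element TGACGTCA and the hypoxia response cores ACGTG and GCGTG.
Flt1: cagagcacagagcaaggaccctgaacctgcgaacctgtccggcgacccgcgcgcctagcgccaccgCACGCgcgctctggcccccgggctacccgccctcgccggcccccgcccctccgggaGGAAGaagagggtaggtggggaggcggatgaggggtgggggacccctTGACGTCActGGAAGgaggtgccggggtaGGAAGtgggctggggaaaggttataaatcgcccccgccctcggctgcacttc
Kdr: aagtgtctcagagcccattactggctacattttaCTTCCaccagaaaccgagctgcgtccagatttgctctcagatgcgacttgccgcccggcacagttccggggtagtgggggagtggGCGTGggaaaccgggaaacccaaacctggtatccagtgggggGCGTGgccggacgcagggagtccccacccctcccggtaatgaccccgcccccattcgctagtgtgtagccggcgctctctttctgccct

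The Flt1 window held 3 ETS cores, 1 cAMP response element and 1 GCGTG core. The Kdr window held 1 ETS core, no cAMP response element and 2 GCGTG cores, and neither held ACGTG. Among the upstream windows of 27025 genes, 63.6% held an ETS core, 1.62% a cAMP response element, 16.6% ACGTG and 28.2% GCGTG. No 2 marked motifs overlap in the windows printed. Of the 9 genes, Flt1 alone held the cAMP response element, and the windows of Nrp1, Nrp2, Vegfb and Pgf held 1, 2, 2 and 1 GCGTG cores. These matches describe letters in a window and were not tied to binding or to expression.

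Total counts ran from 14731683 to 25906121 in females and from 13457293 to 23095627 in males. The summed level of 11 microglia identity genes was 25939 to 40708 over the 39 libraries, in TMM-normalised counts scaled to a common library size (CPM). A sum over 18 genes of disease-associated microglia (DAM) set 1 library against its label. F 5XFAD NX 4 had 9833 CPM, while the other 4 libraries of its group had 49633 to 84299 CPM and WT NX females 11429 to 18571 CPM. Female NX genotype values of the VEGF system genes are given with and without this library. M 5XFAD NX 4 and 5 also stood apart, with DAM sums of 44411 and 42454 CPM against 66811 to 85655 CPM in the other 3 of that group. In these bulk samples, fewer cells of a type and less RNA per cell cannot be told apart.

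Flt1 was low and uneven in WT libraries and high in nearly every 5XFAD library. In females, the WT NX libraries measured 31.4, 5.50, 15.4 and 8.43 CPM and the WT CIH libraries 3.02, 3.27, 23.3, 25.4 and 26.7 CPM. The 5XFAD NX females measured 231, 177, 105, 8.09 and 246 CPM and the 5XFAD CIH females 136, 122, 182, 134 and 192 CPM. Apart from F 5XFAD NX 4, every 5XFAD female stood above every WT female, and that library sat inside the WT range.

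In males, Flt1 measured 4.01, 29.2, 5.62, 39.2 and 35.0 CPM in WT NX and 5.26, 12.7, 8.86, 23.7 and 17.9 CPM in WT CIH. The 5XFAD NX males measured 78.0, 86.5, 107, 126 and 123 CPM and the 5XFAD CIH males 93.1, 101, 73.5, 62.7 and 114 CPM. Each 5XFAD male lay above each WT male. WT levels ran from 3.02 to 31.4 CPM in females and from 4.01 to 39.2 CPM in males.

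**Figure D1:**
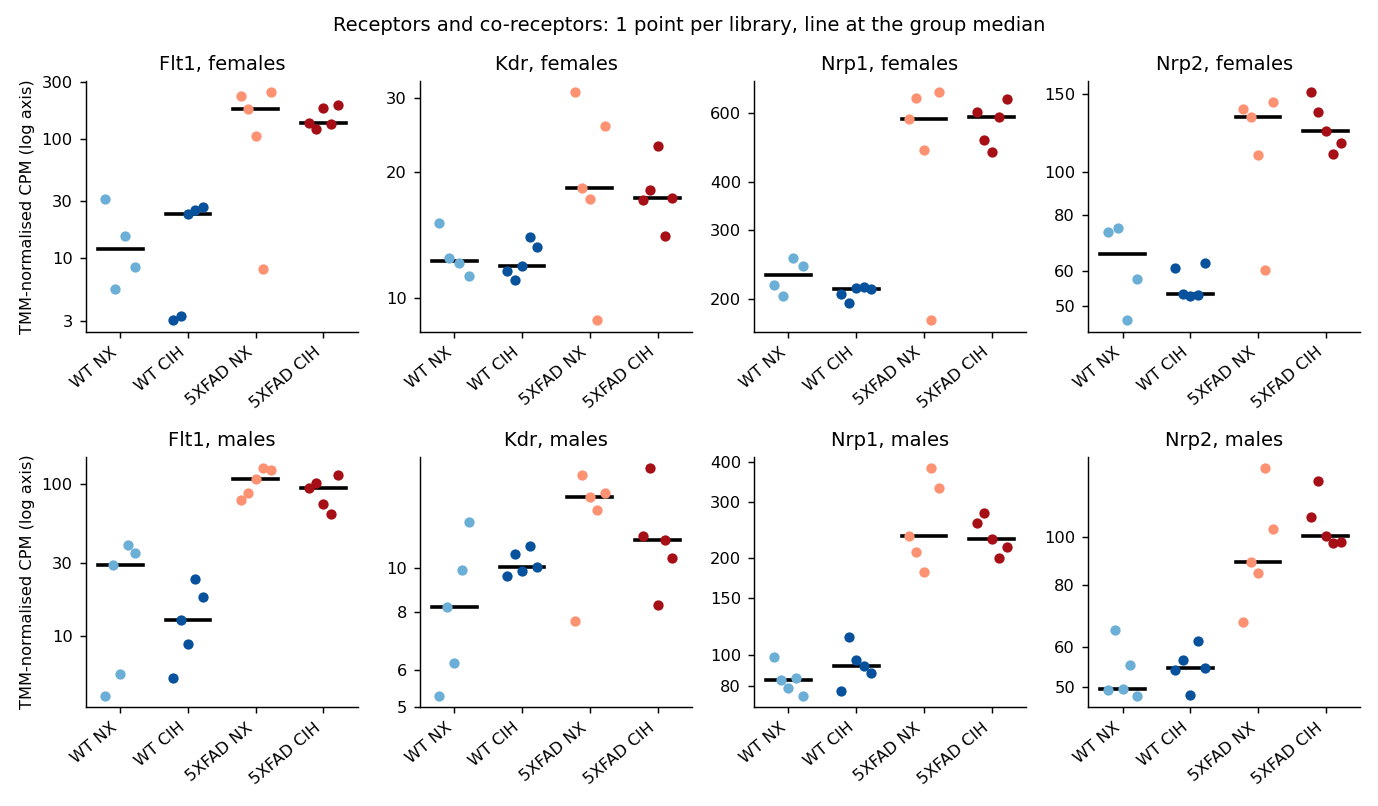
Flt1, Kdr, Nrp1 and Nrp2 in TMM-normalised CPM on a log axis, by group, for females (top) and males (bottom), with 1 point per library and a line at the group median. Flt1 in 5XFAD males spans 62.7 to 126 CPM and lies above all WT males, which reach 39.2 CPM, and the low 5XFAD NX point in females is F 5XFAD NX 4 at 8.09 CPM.

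By log2FC the genotype fits put Flt1 first among the genes fitted, 7 in each female comparison, 8 in male NX and 7 in male CIH. Its log2FC from WT to 5XFAD was 3.32 (SE 0.86) under NX and 3.23 (SE 0.48) under CIH in females. It was 2.21 (SE 0.53) under NX and 2.70 (SE 0.31) under CIH in males. Without F 5XFAD NX 4 the female NX value was 3.61 (SE 0.50). These 4 contrasts gave rise to the choice of Flt1 and stand here as a description. The NX and CIH contrasts within a sex share no library.

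Kdr, the main signalling receptor of endothelium, differed less. Female WT libraries had 11.3 to 15.1 CPM under NX and 11.0 to 14.0 CPM under CIH, and 5XFAD females had 8.85 to 31.0 CPM under NX and 14.1 to 23.0 CPM under CIH. Its log2FC with genotype was 0.67 (SE 0.29) under NX, 0.85 (SE 0.19) without F 5XFAD NX 4, and 0.55 (SE 0.12) under CIH. In males Kdr ranged from 5.28 to 12.6 CPM in WT NX, from 9.57 to 11.2 CPM in WT CIH, from 7.67 to 15.9 CPM in 5XFAD NX and from 8.32 to 16.4 CPM in 5XFAD CIH. The male log2FC was 0.64 (SE 0.26) under NX and 0.20 (SE 0.17) under CIH, and scaling by library size alone turned the latter to −0.17. The male genotype groups overlapped in both treatments.

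Flt4, the receptor of lymphatic endothelium, was near the detection limit, at 0 to 3.39 CPM over all 39 libraries and at most 44 reads in any of them. Its log2FC with genotype in female NX was 0.65 (SE 0.73), and 0.26 (SE 0.70) without F 5XFAD NX 4. Its groups overlapped in every comparison, and it did not pass the filter of CPM above 1 in at least 3 libraries in male WT CIH vs 5XFAD CIH.

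Nrp1, the co-receptor for VEGFA and class 3 semaphorins, was abundant in every library and higher in 5XFAD. Female WT NX libraries had 217, 203, 255 and 243 CPM and WT CIH libraries 205, 195, 213, 214 and 212 CPM. The 5XFAD NX females had 581, 657, 482, 176 and 679 CPM and the 5XFAD CIH females 603, 511, 478, 586 and 653 CPM. F 5XFAD NX 4 (176 CPM) lay below all WT females, and the other 9 libraries stood above them.

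Male Nrp1 was 98.1, 83.3, 78.9, 84.6 and 74.3 CPM in WT NX and 77.2, 114, 95.9, 92.4 and 87.3 CPM in WT CIH. It was 235, 209, 181, 382 and 331 CPM in 5XFAD NX and 258, 276, 230, 200 and 218 CPM in 5XFAD CIH. M 5XFAD NX 4 and 5 were the highest of all males. The genotype log2FC of Nrp1 was 1.16 (SE 0.32) and 1.46 (SE 0.08) in females under NX and CIH, and 1.68 (SE 0.20) and 1.35 (SE 0.12) in males. Without F 5XFAD NX 4 the female NX value was 1.38 (SE 0.12), and leaving out both M 5XFAD NX 4 and 5 gave 1.31 (SE 0.11) for the male NX value.

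Nrp2, the neuropilin that pairs with Flt4 in lymphatic vessels, went the same way with smaller values. Its group medians and ranges can be read in the plot of receptor levels, and its genotype log2FC was 0.89 (SE 0.24) and 1.19 (SE 0.09) in females under NX and CIH, and 0.86 (SE 0.18) and 0.97 (SE 0.11) in males. Without F 5XFAD NX 4 the female NX value was 1.04 (SE 0.15). Male groups did not overlap under either treatment, with WT NX at 47.9 to 65.1 CPM against 67.6 to 138 CPM in 5XFAD NX, and WT CIH at 48.1 to 61.9 CPM against 97.2 to 129 CPM in 5XFAD CIH. In females, WT CIH (52.9 to 62.5 CPM) and 5XFAD CIH (109.9 to 151 CPM) were separate, while WT NX (46.6 to 75.1 CPM) and 5XFAD NX (60.4 to 144 CPM) overlapped.

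Among the ligands, Vegfa, the main angiogenic factor, was low in WT and higher in most 5XFAD libraries. Female WT NX libraries had 38.8, 10.4, 10.6 and 5.54 CPM and WT CIH libraries 4.95, 4.16, 6.12, 7.25 and 5.57 CPM. The 5XFAD NX females had 28.6, 29.4, 23.6, 5.70 and 45.6 CPM and the 5XFAD CIH females 31.8, 28.2, 29.7, 48.7 and 23.4 CPM. F WT NX 1, which also had the highest DAM sum of the WT NX females, reached the 5XFAD range, and F 5XFAD NX 4 lay in the WT range.

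Male Vegfa was 3.55, 3.28, 3.99, 5.97 and 5.22 CPM in WT NX and 4.88, 5.18, 8.15, 8.00 and 10.6 CPM in WT CIH. It was 8.74, 14.96, 17.4, 12.98 and 19.6 CPM in 5XFAD NX and 17.1, 13.9, 12.6, 11.6 and 14.9 CPM in 5XFAD CIH. Within each treatment the genotype groups did not overlap in males. The genotype log2FC was 0.69 (SE 0.62) under NX and 2.54 (SE 0.20) under CIH in females, and 1.74 (SE 0.25) and 0.94 (SE 0.21) in males. The female NX value was 0.93 (SE 0.50) without F 5XFAD NX 4 and 1.83 (SE 0.27) without both F WT NX 1 and F 5XFAD NX 4.

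**Figure D2:**
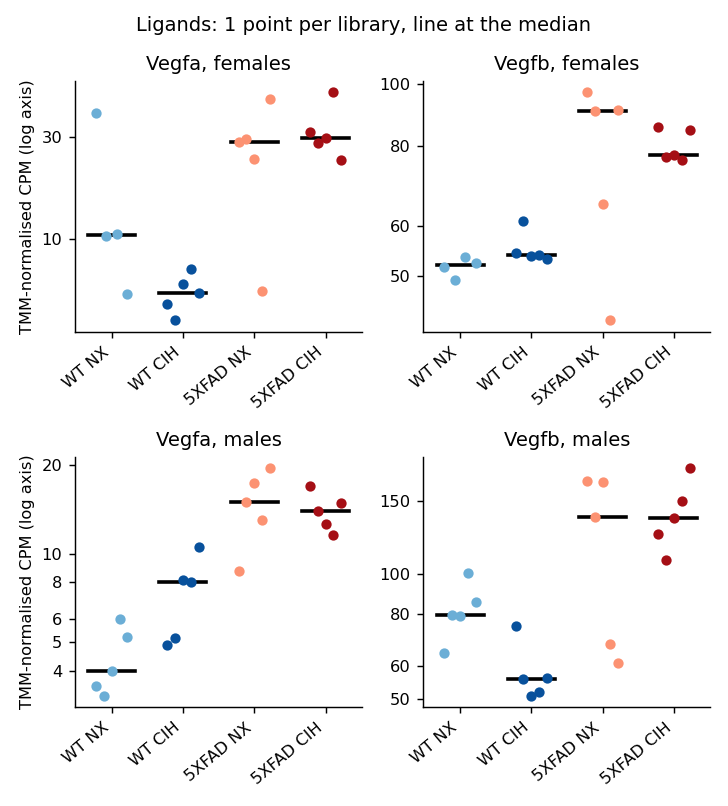
Vegfa and Vegfb in TMM-normalised CPM on a log axis, by group, for females (top) and males (bottom), with 1 point per library and a line at the group median. In WT females the Vegfa point at 38.8 CPM is F WT NX 1, and the 2 low Vegfb points of male 5XFAD NX, at 67.7 and 61.2 CPM, are replicates 4 and 5.

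Vegfb, a ligand of FLT1 and NRP1 but not of KDR, was present in all libraries. WT females had 49.4 to 53.6 CPM under NX and 53.3 to 61.0 CPM under CIH, and 5XFAD females had 42.7 to 96.9 CPM under NX and 76.0 to 85.6 CPM under CIH. Male WT NX libraries had 64.5, 79.5, 79.4, 100.3 and 85.6 CPM and WT CIH libraries 75.1, 55.9, 50.9, 52.0 and 56.1 CPM. The 5XFAD NX males had 167, 137, 167, 67.7 and 61.2 CPM and the 5XFAD CIH males 125, 108, 136, 149.6 and 179.8 CPM. The genotype log2FC was 0.57 (SE 0.20) and 0.55 (SE 0.06) in females under NX and CIH, and 0.55 (SE 0.27) and 1.27 (SE 0.14) in males. Without F 5XFAD NX 4 the female NX value was 0.72 (SE 0.11), and without both M 5XFAD NX 4 and 5 the male NX value was 0.94 (SE 0.12).

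Vegfc and Pgf, the ligands of FLT4 and of FLT1, were barely detected. The reads of Vegfc numbered 0 to 38 in a library of the female table and 0 to 60 in the male table, and those of Pgf 0 to 12 and 0 to 24. At 3 reads, the limit that a count of 0 allows, a library corresponds to 0.110 to 0.202 CPM in females and 0.122 to 0.232 CPM in males. Neither passed the filter in females. In males Vegfc was fitted in all comparisons but 5XFAD NX vs 5XFAD CIH, and Pgf in WT NX vs WT CIH and the interaction only. The male genotype log2FC of Vegfc was −1.04 (SE 0.97) under NX and −1.03 (SE 0.95) under CIH. With CIH in WT males, Vegfc had −0.97 (SE 0.88) and Pgf −1.30 (SE 1.14). The groups overlapped in each of these comparisons.

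Of the 9 genes, 7 could be fitted in each female comparison, and 7 to 9 in the male comparisons. Under the study's definition of a differentially expressed gene (DEG, FDR below 0.05 and absolute log2FC above 1), Flt1 and Nrp1 passed in female WT NX vs 5XFAD NX, where 4.40% of all genes tested passed as higher. In female WT CIH vs 5XFAD CIH, Flt1, Nrp1, Nrp2 and Vegfa passed, against 8.83% of all genes as higher. In males, Flt1, Nrp1 and Vegfa passed under NX (5.94% of all genes as higher) and Flt1, Nrp1 and Vegfb under CIH (11.8% of all genes as higher). FDR alone was passed by 5 of the 7 in male CIH, against 49.0% of all genes. None of the 9 passed as lower, where 1.59% and 4.12% of all genes did in females and 2.31% and 6.88% in males under NX and CIH. Libraries of the 2 genotypes did not overlap, with 5XFAD higher, for 0 of 7 genes in female NX (3.21% of all genes), 6 of 7 in female CIH (18.8%), 4 of 8 in male NX (8.57%) and 5 of 7 in male CIH (19.4%). These counts come from the contrasts the genes were chosen on. The female NX count of 2 was 0 in 7 of the 9 fits that left out 1 library, 1 without F WT NX 1 and 3 without F 5XFAD NX 4.

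**Figure D3:**
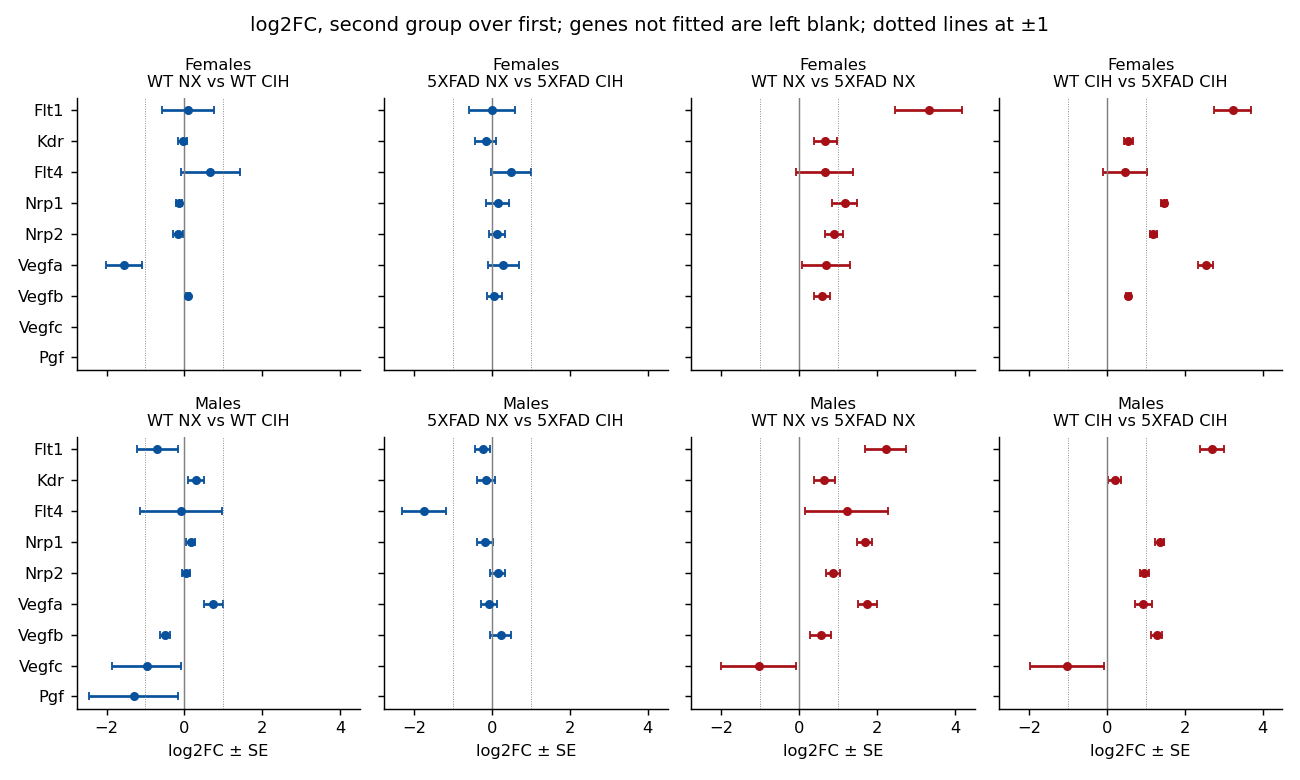
log2FC of each fitted gene, second group over first, with SE bars, for females (top) and males (bottom) in the 2 treatment comparisons (blue) and the 2 genotype comparisons (red). Flt1 reaches 3.32 and 3.23 in the female genotype panels and 2.21 and 2.70 in the male ones, while its treatment values lie between −0.70 and 0.09.

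Compared per unit of length, as FPKM within a table, Vegfb and Nrp1 led in all groups. In female WT NX the median FPKM was 44.5 for Vegfb, 43.1 for Nrp1, 11.4 for Nrp2, 3.43 for Vegfa, 2.69 for Flt1 and 2.67 for Kdr. The ranges of Vegfb and Nrp1 overlapped, and from Nrp2 to Kdr each overlapped with the next. In female 5XFAD CIH the order was Nrp1 (99.8), Vegfb (61.4), Flt1 (27.3), Nrp2 (20.1), Vegfa (8.98) and Kdr (3.28), and no neighbours among these 6 overlapped. By FPKM, Flt1 thus stood above Nrp2 and well above Kdr in that group. In CPM, Flt1 (122 to 192) and Nrp2 (110 to 151) overlapped there. In F 5XFAD CIH 2, Nrp2 had more reads than Flt1 (2642 against 2360) but a lower FPKM (21.8 against 25.0). The order of these 2 genes therefore rests on the gene lengths behind the female FPKM. The male table gives 13504 bases for Flt1 and 11842 for Nrp2, so orders are not compared between tables.

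In male WT NX the median FPKM was 49.5 for Vegfb, 8.46 for Nrp1, 4.18 for Nrp2, 2.15 for Flt1, 0.932 for Vegfa and 0.907 for Kdr, with each of the last 3 overlapping with the next. In male 5XFAD CIH it was 83.9 for Vegfb, 23.2 for Nrp1, 8.36 for Nrp2, 6.80 for Flt1, 3.25 for Vegfa and 1.25 for Kdr. Nrp2 and Flt1 overlapped there and the other neighbours did not. Vegfc, Flt4 and Pgf had medians below 1 FPKM in each group of both sexes.

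CIH was asked about next, within each genotype, with edgeR's quasi-likelihood F test over all genes. In WT females no gene in the table was a DEG (0% by edgeR, and 0 by DESeq2, with 565 genes, 3.87%, at an unadjusted p under 0.05), and none of the 7 genes passed. Without the filter on low counts, 0.0572% of 36713 genes were DEGs, all 21 of them lower, Vegfa among them. With the filter, Vegfa had the lowest unadjusted p of the 7 (0.00621, adjusted p = 0.96), with a log2FC of −1.55 (SE 0.46). Without F WT NX 1 the log2FC was −0.65 (SE 0.24). In the same comparison 8 of 17 DAM genes had an unadjusted p under 0.05 (list median −0.59), with sums of 11429 to 18571 CPM in WT NX, the highest in F WT NX 1, and 11231 to 13456 CPM in WT CIH. Their part in the Vegfa value was not tested. Vegfa was the only one of the 7 at p under 0.05, and DESeq2 called 0. Flt1 had a log2FC of 0.09 (SE 0.67, 95% interval −1.38 to 1.57).

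In 5XFAD females 0% of genes were DEGs by edgeR, 0 by DESeq2, and 470 (3.22%) had an unadjusted p under 0.05, none of the 7 genes among them. Flt1 had a log2FC of 0.0068 (SE 0.59), and −0.30 (SE 0.22) without F 5XFAD NX 4. The intervals were wide for Flt1 (−1.29 to 1.30) and narrower for Nrp2 (−0.31 to 0.58) and Vegfb (−0.34 to 0.47). Without F 5XFAD NX 4 the log2FC was −0.35 (SE 0.18) for Kdr, 0.84 (SE 0.49) for Flt4, −0.07 (SE 0.12) for Nrp1, −0.03 (SE 0.10) for Nrp2, 0.04 (SE 0.22) for Vegfa and −0.09 (SE 0.10) for Vegfb. With it, the values of Flt4 and Vegfa were 0.50 (SE 0.51) and 0.30 (SE 0.40).

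WT males were the group with a CIH response over the whole table, with 2.51% of genes as DEGs, 1.63% higher and 0.881% lower. None of the 9 VEGF system genes was among these DEGs, and DESeq2 called 0 of the 9. With all 4 male groups in one fit, 0 of 15813 genes passed and 4491 had an unadjusted p under 0.05, and the FDR was 0.0712 for Vegfa and 0.162 for Vegfb. At FDR alone, which 28.6% of genes passed, 2 of the 9 did. Vegfa rose with a log2FC of 0.74 (SE 0.25, FDR 0.0388), from a mean of 4.41 to 7.35 CPM, and Vegfb fell by 0.50 on the log2 scale (SE 0.13, FDR 0.00814), from 81.9 to 58.0 CPM. A share of 2 of 9 lies near the background. Vegfa lost its FDR in 6 of the 10 fits that left out 1 library, up to an FDR of 0.124 without M WT CIH 5, and Vegfb in none. Neutrophil genes moved in the same comparison, with 7 of 9 lower (list median −1.69) and a summed level of 253 to 1323 CPM in WT NX and 120.2 to 345 CPM in WT CIH. Monocyte genes were lower for 3 of 7 (list median −0.69), with a summed level of 46.8 to 115 CPM in WT NX and 32.3 to 55.7 CPM in WT CIH. Of 17 DAM genes, 1 was lower as a DEG and 12 at FDR alone (median −0.54), and of 8 astrocyte genes 1 was higher (median 1.20). The part of these lists in the Vegfa and Vegfb values was not tested. In both genes 1 or more libraries overlapped between the groups, and for Vegfb the overlapping one was M WT CIH 1 at 75.1 CPM. Flt1 had a log2FC of −0.70 (SE 0.52, FDR 0.34).

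In 5XFAD males no gene in the table was a DEG by edgeR (0%), with 1 by DESeq2 and 473 (3.30%) at an unadjusted p under 0.05, and the FDR was 0.995 for each of the 7 genes fitted. Flt4 alone had an unadjusted p under 0.05, at a log2FC of −1.74 (SE 0.58), and DESeq2 called none of the 7. With a score of 16 endothelial genes (their mean log2 CPM) as a covariate, a choice made after the data were seen, the Flt4 value was −0.23 (SE 0.63). At an unadjusted p under 0.05 there were 8 of 16 endothelial genes (list median −1.15), 3 of 7 mural genes (−0.83) and 5 of 9 neutrophil genes (−1.49). The endothelial sum was 238 to 447 CPM in 5XFAD NX and 192 to 319 CPM in 5XFAD CIH. Flt1 had a log2FC of −0.24 (SE 0.19, 95% interval −0.64 to 0.17), and −0.015 without both M 5XFAD NX 4 and 5.

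The CIH effect was then compared between genotypes as an interaction over the 4 groups of a sex. No gene passed by edgeR in either table (0%), with 589 (3.78%) at an unadjusted p under 0.05 in females and 3857 (24.4%) in males, and DESeq2 called 0 in females and 381 in males, 0 of the 9 among them. In males edgeR called 478 genes without M 5XFAD NX 1 and 0 in each other fit that left out 1 library, 175 by the likelihood ratio test, 709 with the endothelial score and 790 without a filter. At an unadjusted p under 0.05 there was 1 VEGF system gene in females, Vegfa, and 2 in males, Vegfa and Vegfb. In the same tests 5 of 18 DAM genes in females (list median 0.64) and 13 of 18 in males (0.74) were under that limit. So were 4 of 9 astrocyte genes in males (−1.44) and 1 of 9 in females (1.20). The part of these lists in the Vegfa and Vegfb values was not tested. The Vegfa interaction was 1.84 (SE 0.67, FDR 0.952) in females and −0.82 (SE 0.33, FDR 0.152) in males, with opposite sign. The female Vegfa value was 0.68 (SE 0.35) without both F WT NX 1 and F 5XFAD NX 4. For Vegfb in males the interaction was 0.72 (SE 0.32, FDR 0.183), and 0.33 without both M 5XFAD NX 4 and 5. The Flt1 interaction was −0.09 (SE 0.97) in females and 0.47 (SE 0.64) in males. Without both F WT NX 1 and F 5XFAD NX 4 the female Flt1 value was −1.05.

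Because FLT1 is a vessel receptor, its level was set beside 16 brain endothelial genes, Flt1 and Kdr not among them. All 16 were in both tables, and 14 in females and 15 in males averaged above 1 CPM. Of the defining genes Cldn5, Cdh5 and Vwf none was at 0 in any library. Cldn5 ranged over 0.772 to 21.5 CPM in WT females, 0.133 to 11.7 CPM in 5XFAD females, 2.79 to 41.9 CPM in WT males and 0.695 to 34.1 CPM in 5XFAD males. The summed level of the 16 genes was 257 to 407 CPM in WT females, 136 to 265 CPM in 5XFAD females, 313 to 625 CPM in WT males and 192 to 447 CPM in 5XFAD males. Eng, an endothelial co-receptor of TGF-beta signalling, made up 63.7% of the sum in females and 61.4% in males. A score, the mean log2 CPM of the 16 genes, gives each of them equal weight.

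In WT libraries Flt1 followed this score closely. With group means removed, Pearson's r was 0.995 and Spearman's rho 0.983 in 9 WT females, and 0.988 and 0.988 in 10 WT males. Exact two-sided permutation within groups gave p = 0.000347 for both in females and 6.94e-05 for both in males, the smallest each design allows. Adjusted over 37 such relations, these were 0.00428 and 0.00642 in females and 0.00257 and 0.00257 in males. Without the 2 libraries farthest from the median score, r was 0.991 and 0.979.

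In 5XFAD libraries the relation did not pass the test in either sex. The 10 5XFAD males gave r = −0.43 and rho = −0.45 (exact permutation p = 0.276 and 0.218, adjusted 0.484 and 0.35), and r = −0.44 without the 2 farthest libraries. The 10 5XFAD females gave r = 0.16 and rho = 0.64 (exact permutation p = 0.66 and 0.0633, adjusted 0.763 and 0.138), and r = 0.44 without the 2 farthest. Without F 5XFAD NX 4 the female values were r = 0.84 and rho = 0.77 (exact permutation p = 0.0247 and 0.0417, adjusted 0.114 and 0.116), and r = 0.68 without the 2 farthest. The difference in r between genotypes was not tested.

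The libraries at the low end of the score are given as values. F 5XFAD NX 3 had the lowest endothelial score of all females, 0.10, with Cldn5 at 0.133 CPM, and its Flt1 was 105 CPM, the lowest of the 5XFAD females other than F 5XFAD NX 4. M 5XFAD CIH 1 had the lowest score of all males, 0.42, with Cldn5 at 0.695 CPM, and its Flt1 was 93.1 CPM. The WT libraries with the lowest scores, F WT CIH 1 (0.66) and M WT NX 1 (1.27), had Flt1 at 3.02 and 4.01 CPM. F 5XFAD NX 4, at a score of 1.55 and 8.09 CPM of Flt1, lay between WT females of similar score.

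**Figure D4:**
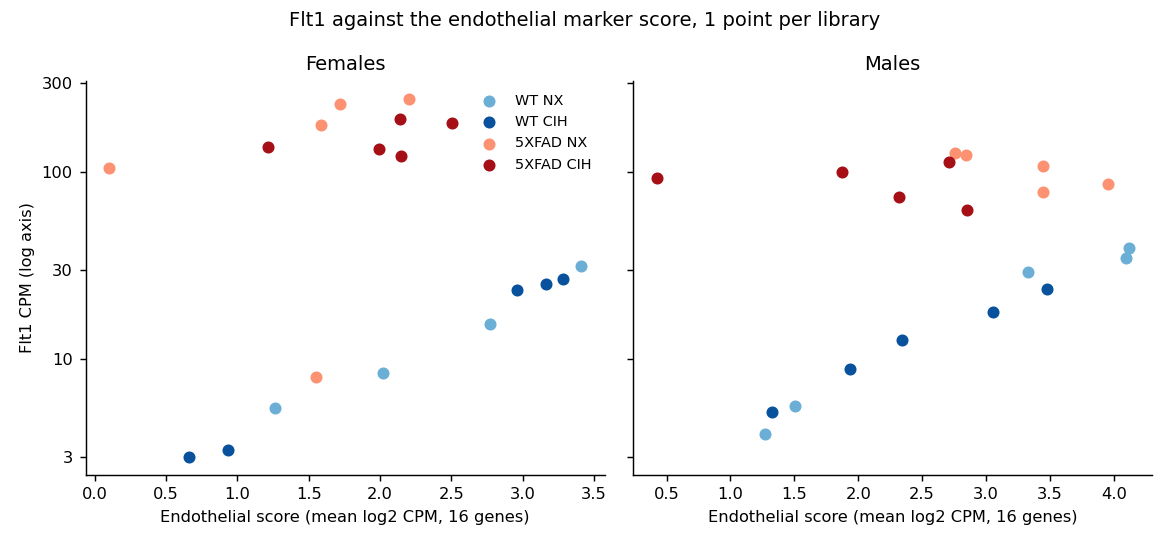
Flt1 CPM on a log axis against the endothelial score (mean log2 CPM of 16 genes) for females (left) and males (right), with 1 point per library coloured by group. WT points rise with the score, from 3.02 to 31.4 CPM in females and from 4.01 to 39.2 CPM in males, while all 5XFAD points other than F 5XFAD NX 4 lie above the WT points at any score.

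With the endothelial score as a covariate, a choice made after the data were seen, the Flt1 SE in WT NX vs WT CIH dropped from 0.67 to 0.11 in females and from 0.52 to 0.14 in males. The log2FC was then 0.06 in females and 0.08 in males.

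Flt4 and Kdr each passed the same test in WT libraries of 1 sex, Flt4 in females and Kdr in males. Flt4 gave r = 0.956 in WT females and 0.826 in WT males, and Kdr 0.712 and 0.869, with exact permutation p adjusted over the 37 relations of 0.0154, 0.129, 0.164 and 0.0154. Their rho values were 0.90, 0.88, 0.75 and 0.94, with adjusted exact permutation p of 0.0398, 0.0639, 0.114 and 0.0398, and r without the 2 farthest libraries was 0.96, 0.67, 0.64 and 0.72. Nrp1 (r = 0.45 and −0.16, rho = 0.28 and −0.16) and Nrp2 (r = −0.13 and 0.43, rho = 0.07 and 0.42) gave adjusted exact permutation p of at least 0.391 in WT. In 5XFAD males Flt4 gave r = 0.958 and rho = 0.939 (adjusted exact permutation p = 0.00385 and 0.00685, r = 0.902 without the 2 farthest), and in 5XFAD females r = 0.57 and rho = 0.28 (0.279 and 0.571, r = −0.01 without the 2 farthest). Kdr gave r = −0.15 and rho = −0.33 in 5XFAD males (adjusted exact permutation p = 0.766 and 0.46, r = −0.18 without the 2 farthest). In 5XFAD females it gave r = 0.30 and rho = 0.84 (0.673 and 0.0398, r = 0.60 without the 2 farthest), and r = 0.62 and rho = 0.80 without F 5XFAD NX 4 (0.279 and 0.0674). Nrp1 and Nrp2 had adjusted exact permutation p of at least 0.0725 in 5XFAD libraries. Of the ligands, Vegfc in WT males gave r = 0.883 and rho = 0.818 (adjusted exact permutation p = 0.045 and 0.114, r = 0.856 without the 2 farthest), and in 5XFAD males r = 0.48 and rho = 0.51 (0.484 and 0.35). Vegfa and Vegfb gave adjusted exact permutation p of at least 0.115 in both genotypes and sexes.

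Genes whose levels moved most like Flt1 from library to library were found by the smaller of 2 correlations, in 18 females (without F 5XFAD NX 4) and 20 males, with group means removed, among 9815 genes above a mean of 5 CPM in both tables. The first 5 were Mcam (r = 0.96 in females, 0.89 in males), Ptprg (0.97, 0.87), Plxna2 (0.87, 0.86), Rgs5 (0.85, 0.84) and Ptprb (0.82, 0.84). Mcam is an adhesion molecule of endothelium and pericytes, Rgs5 a pericyte marker and Ptprb the endothelial VE-PTP phosphatase. Plxna2 is also among the neuropilin partners below, where it was higher in 5XFAD in each genotype comparison. The median r was 0.78 in females and 0.59 in males over 6 endothelial genes that passed the CPM limit, 0.45 and 0.07 over 18 DAM genes, and −0.03 and −0.02 over all genes. With F 5XFAD NX 4 included, the order of the female medians was the other way, at 0.56 for the endothelial genes, 0.76 for the DAM genes and 0.14 for all genes. These points share depth and the removed group means, and the values are a description.

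The same ranking was made within each genotype, a split made after the data were seen. In WT libraries alone, the 5 most alike were Epas1 (0.99, 0.99), Jcad (0.99, 0.99), Adgrf5 (0.99, 0.98), Ptprb (0.98, 0.97) and Ltbp4 (0.98, 0.97). In 5XFAD libraries alone they were Scarb2 (0.92, 0.89), Colec12 (0.89, 0.92), Hif1a (0.89, 0.88), Axl (0.90, 0.85) and Sh3bgrl (0.83, 0.88). The endothelial medians were 0.90 and 0.91 in WT against 0.27 and −0.50 in 5XFAD, and the DAM medians 0.45 and 0.17 against 0.72 and 0.10. Of the defining endothelial genes, Cldn5 gave 0.80 in 5XFAD females and −0.43 in 5XFAD males, and Vwf 0.80 and −0.22, against 0.942 to 0.996 for both in WT. For 2 mural genes the medians were 0.93 and 0.93 in WT and 0.85 and −0.51 in 5XFAD. These values rest on 9 female and 10 male libraries of each genotype, and the difference between genotypes was not tested.

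The rest of the VEGF and neuropilin pathway was read from fixed lists, each against the same tests. Over all genes tested, 4.40% were higher and 1.59% lower in 5XFAD in female NX, 8.83% and 4.12% in female CIH, 5.94% and 2.31% in male NX, and 11.8% and 6.88% in male CIH, and the counts of each list stand beside these shares. The female NX shares were 7.16% and 6.13% without F 5XFAD NX 4. Of 12 neuropilin partners (plexins and class 3 semaphorins), 8 to 9 could be tested. In females 1 was higher and 1 lower in 5XFAD under NX (1 and 2 without F 5XFAD NX 4), and 2 and 2 under CIH. In males the counts were 1 and 1 under NX, and 2 and 2 under CIH. Plxna2, a plexin that pairs with neuropilins, rose from 1.39 to 16.2 CPM in female WT CIH vs 5XFAD CIH (log2FC 3.53, SE 0.37) and from 0.792 to 11.2 CPM in the male comparison (3.79, SE 0.35). Plxnd1 rose there too (1.39, SE 0.19 in females and 1.12, SE 0.19 in males). Plxna1 fell by 1.20 and 1.22 on the log2 scale, and Plxna4, a receptor of SEMA3A, fell by 1.00 and 1.09. Under NX, Plxna2 rose by 3.21 (SE 0.74) in females and 2.79 (SE 0.56) in males. The median log2FC of the list was −0.33 in females and −0.35 in males under CIH, against −0.02 and −0.06 for all genes.

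Of 45 genes that carry VEGF receptor signals inside the cell, 42 or 43 were tested. In 5XFAD, 2 were higher and 1 lower under NX in both sexes (over all genes 4.40% and 1.59% in females, 5.94% and 2.31% in males). The female counts were 2 and 2 without F 5XFAD NX 4. Under CIH 3 were higher and 1 lower in females (8.83% and 4.12%), and 4 and 3 in males (11.8% and 6.88%). Fyn, a Src family kinase, rose in all 4 comparisons, with log2FC of 1.52 and 1.79 in females and 1.38 and 1.70 in males under NX and CIH. Prkca (protein kinase C alpha) fell by 1.06 and 1.59 in females and 1.40 and 1.84 in males. The adaptor Gab1 fell by 1.22 in male WT CIH vs 5XFAD CIH. The list median was −0.02 and −0.06 in females and −0.02 and 0.04 in males, against −0.02, −0.02, 0.02 and −0.06 for all genes.

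Among 23 other angiogenic ligands and receptors, 18 or 19 were tested. In 5XFAD, 2 were higher and 0 lower in females under NX (4.40% and 1.59% of all genes, and 3 and 1 without F 5XFAD NX 4) and 4 and 1 under CIH (8.83% and 4.12%). In males the counts were 2 and 1 under NX (5.94% and 2.31%) and 3 and 0 under CIH (11.8% and 6.88%). Pdgfc, a platelet-derived growth factor ligand, rose with log2FC of 2.15 and 2.24 in females and 1.90 and 2.00 in males. Fgf2 rose by 1.41 in female NX and by 1.42 and 1.10 in males under NX and CIH. Thbs1, which encodes the angiogenesis inhibitor thrombospondin 1, rose by 1.49 in female CIH. Efnb2, the arterial ephrin, fell by 1.05 in female CIH and by 1.32 in male NX.

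Among 26 hypoxia response genes, 24 or 25 were tested. In 5XFAD, 3 were higher in females under NX (4.40% of all genes) and 8 under CIH (8.83%), and 8 and 9 in males (5.94% and 11.8%), with 0 lower. In female NX, 8 of 24 were higher and 3 lower without F 5XFAD NX 4 (7.16% and 6.13% of all genes). The list median was 0.23 and 0.76 in females and 0.45 and 0.38 in males. Egln3, a prolyl hydroxylase that marks HIF for degradation and is itself a HIF target, rose with log2FC of 4.02 and 5.38 in females and 5.70 and 5.34 in males. Bhlhe40, a transcriptional repressor, rose by 4.18 in female CIH and by 4.51 and 4.44 in males, and Ak4, a mitochondrial adenylate kinase, by 2.69 in female NX.

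With CIH, 1 gene of these 4 lists was a DEG. Ddit4, a stress-induced inhibitor of mTOR, rose with a log2FC of 1.05 (SE 0.34, FDR 0.0296) in WT males, from a mean of 12.5 to 25.6 CPM. At FDR alone, which 28.6% of all genes passed there, 8 of 43 signal transducers were higher and 11 lower, 4 of 24 hypoxia genes higher and 1 lower, 1 of 19 other angiogenic genes higher and 1 lower, and 1 of 9 neuropilin partners higher. In females of both genotypes and in 5XFAD males none passed by edgeR's test. At an unadjusted p under 0.05 the hypoxia list had 7 of 25 genes in WT females (3.87% of all genes), 1 of 24 in 5XFAD females (3.22%), 7 of 24 in WT males (39.8%) and 3 of 24 in 5XFAD males (3.30%). The hypoxia list median with CIH was −0.23 in WT females, 0.06 in 5XFAD females, −0.0010 in WT males and −0.06 in 5XFAD males.

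Of the 16 endothelial genes, 14 to 16 were tested with genotype, and 0 were higher and 1 or 2 lower in each comparison. Pecam1, an endothelial adhesion molecule, was lower in all 4. Their medians were −1.08 and −0.53 in females and 0.05 and −0.41 in males under NX and CIH, and those of the 6 or 7 mural genes tested −1.16, −0.34, 0.43 and −0.15. Over the same comparisons, 13 to 18 of the 18 DAM genes were higher and none lower. Border macrophage genes were lower, 8 and 7 of 11 in females and 7 and 2 in males, with summed levels of 1322 to 1845 CPM in WT and 541 to 1199 CPM in 5XFAD females, and 1246 to 1880 CPM and 463 to 885 CPM in males. Stab1 alone made up 81.5% of this sum in females and 79.0% in males, so the sums mostly follow 1 gene. Of 9 astrocyte genes, 1 and 5 were higher in females under NX and CIH, and 4 and 2 in males, and 1 was lower in these 4 comparisons, the gap junction gene Gja1 in male CIH (log2FC −1.92). In female NX, 2 were higher and 1 lower without F 5XFAD NX 4. Gfap, the astrocyte filament protein, ran from 0 to 1.72 CPM over all WT libraries and from 1.80 to 747 CPM over 5XFAD libraries, with the lowest in F 5XFAD NX 4. In the order female NX, female CIH, male NX and male CIH, oligodendrocyte genes were higher for 0 of 5, 1 of 5, 3 of 6 and 2 of 6. Monocyte genes were lower for 2 of 7, 1 of 7, 0 of 7 and 0 of 6, with 1 higher in male CIH, and neutrophil genes were lower for 0, 0, 0 and 3 of 9. Neuron genes were lower for 0 of 4, 1 of 5, 1 of 6 and 0 of 6, and microglia identity genes for 1, 2, 2 and 2 of 11. In female NX without F 5XFAD NX 4, 4 of 7 monocyte, 2 of 9 neutrophil and 2 of 11 microglia identity genes were lower. The part of these cell types in the values of the VEGF system genes was not tested.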

How the data were processed

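CD11b+ cells were isolated by the authors from the cerebrum. The submitters' processing notes name HISAT2 and GRCm38. The authors deposited whole-number read counts per gene, without normalization, and FPKM values, here used only to compare genes within a table. In the deposited male table, the library size behind FPKM was 0.794 to 1.204 times the total count.

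Groups, sex and replicate numbers came from the sample titles. Each pair of groups was tested on its own with edgeR 4.0.16 in R 4.3.3 (TMM, quasi-likelihood F test, genes with CPM above 1 in at least 3 samples compared), and the interaction over the 4 groups of a sex. p-values were adjusted by Benjamini-Hochberg over all genes tested. The 9 genes are all reported, and for each pathway list the 2 largest rises and 2 largest falls among DEGs. Likeness to Flt1 used log2 CPM (prior count 1), and the 5 genes with the highest smaller r were named.

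The genes and lists were chosen with earlier results of these data known. The study's methods call the samples independent, and the labels do not name animals, so p-values measure the spread between libraries, which may be technical. No 2 libraries of a group agreed within sampling noise (chi-square per degree of freedom at least 4.865). The test was tried on simulated data. Alternatives were DESeq2 1.42.0, the likelihood ratio test, library size alone, no filter, at least 10 counts in every sample, FDR alone, all groups in one fit, a replicate block and each library left out. The endothelial covariate, leaving out 2 libraries together and the split of likeness by genotype were added after the data were seen. Counting intervals and limits cover counting error only. Some single genes are not reported here.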

Additional observations from a re-analysis of the deposited data

Results flagged for a closer look

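Each of the 72 sets of libraries formed by 1 gene in 1 group was searched for a library far from the others (Dixon's criterion, under which chance flags about 1 in 20 sets), and 5 were found. Vegfa in F WT NX 1 was 38.8 CPM, against 5.54 to 10.6 CPM in the other WT NX females. Vegfb in F WT CIH 2 was 61.0 CPM, against 53.3 to 54.4 CPM, and in M WT CIH 1 it was 75.1 CPM, against 50.9 to 56.1 CPM. Flt4 in M WT CIH 5 was 2.01 CPM, against 0.313 to 0.641 CPM, and Pgf in the same library was 0.861 CPM, against 0 to 0.148 CPM. No difference in the CIH effect between genotypes passed its test for any of the 9 genes.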

How the results depend on the processing

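The number of VEGF system genes past the DEG thresholds kept within 1.5 times under DESeq2, the likelihood ratio test, at least 10 counts in every sample and all 4 groups in one fit. In female WT NX vs 5XFAD NX (2 genes) it was 1 with library size alone, 0 with the replicate block, 0 with the endothelial score, 4 with F WT NX 1 and F 5XFAD NX 4 both left out, and 0 to 3 with 1 library left out. In male WT CIH vs 5XFAD CIH (3 genes) it was 1 with library size alone, 5 at FDR alone and 3 to 5 with 1 library left out. It was 1 in female WT NX vs WT CIH without a filter (Vegfa, log2FC −1.59, among 21 of 36713 genes) and 2 in male WT NX vs WT CIH at FDR alone. Over all genes, DEGs in female WT NX vs 5XFAD NX numbered 869, 27 to 1880 with 1 library left out (lowest without F WT NX 3) and 7 to 2072 otherwise. In male WT NX vs WT CIH they numbered 376, 267 to 621 and 0 to 639 (0 with all 4 groups in one fit), in the male interaction 0, 0 to 478 (478 without M 5XFAD NX 1) and 0 to 790, and in male WT NX vs 5XFAD NX 1224, 1040 to 1283 and 830 to 1692. Library size alone moved the median log2FC of all genes from −0.02 to −0.21 in female and from −0.06 to −0.43 in male WT CIH vs 5XFAD CIH, and the share of DEGs that were higher from 68.2% to 50.7% and from 63.2% to 31.2%. In male WT NX vs 5XFAD NX that share went from 72.0% to 50.9%, and in male WT NX vs WT CIH from 64.9% to 78.7%.

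Among the alternatives run, no genotype value of a gene past the thresholds turned sign. Among CIH and interaction values, none called, these did. In female WT NX vs WT CIH, Flt1 was −0.31 with the replicate block, and leaving out 1 library gave −0.18 to 0.75 for Flt1 and −0.11 to 0.052 for Kdr. In 5XFAD females, Flt1 was −0.029 without a filter, −0.0034 with all groups and −0.21 with the endothelial score, and Vegfb −0.00032 with that score. With 1 library left out there, Flt1 ran from −0.30 to 0.24, Kdr −0.35 to 0.042, Nrp1 −0.069 to 0.26, Nrp2 −0.026 to 0.22 and Vegfb −0.085 to 0.16. The female interaction with the replicate block was 0.020 for Flt1, 0.0040 for Flt4 and 0.013 for Vegfb. With 1 library left out it ran from −0.74 to 0.18 for Flt1, −0.31 to 0.078 for Kdr, −0.95 to 0.19 for Flt4 and −0.18 to 0.053 for Vegfb. In WT males with the endothelial score, Flt1 was 0.077, Flt4 2.29, Vegfc 0.10 and Pgf 0.21. Flt4 was 0.043 with library size alone, 1.06 with the replicate block and −0.43 to 0.10 with 1 library left out, and Nrp2 −0.0012 to 0.13. In 5XFAD males without M 5XFAD NX 4 and 5, Nrp1 was 0.20, Vegfa 0.050 and Vegfb −0.16, Nrp2 was −0.091 with the endothelial score, and Vegfa −0.21 to 0.054 with 1 library left out. In the male interaction, Nrp1 was 0.025 without M 5XFAD NX 4 and 5, Nrp2 −0.10 with library size alone and −0.0051 to 0.26 with 1 library left out. Vegfc, near 0 reads, was −0.0094 with the likelihood ratio test, −0.28 with library size alone, −0.012 without a filter, −1.14 with the replicate block, −0.070 with the endothelial score and −1.25 to 0.47 with 1 library left out. The cause was not tested.

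Replicate numbers are shared by the groups, and same-numbered libraries correlated above 0.1 in 13 of 38 pairs (r from −0.55 to 0.31). Pairs with different numbers were not compared, so whether same-numbered libraries share more than a number cannot be told. Of the 5 genes most like Flt1, 3 remained with all 19 females, 3 with Spearman's rho, 1 in WT alone and 0 in 5XFAD alone. Depth limits Flt4, Vegfc and Pgf, whose fits rest on few reads.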
